A study of Mus musculus with 23 samples.

Results

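Hippocampal RNA of 9 ADPolB mice was compared, 5 of them given urolithin A and 4 given vehicle, out of 23 mice in the study. The mice were taken by their labels alone, and the comparison covered every gene with values on the panel, 748 genes, of which 619 were tested. ADPolB mice carried Polbtm1Rsky on 1 allele, a targeted allele of DNA polymerase beta, together with Tg(APPSwe,tauP301L)1Lfa and Psen1tm1Mpm. The last 2 make up the triple-transgenic Alzheimer model, written here as AD, and both were carried by treated and control mice alike. All mice were 18 months old, on a background labelled C57BL6/J, and the treated mice had received 200 mg/kg of urolithin A per day by oral gavage for 5 months. Treated mice 2, 3 and 5 were female and treated mice 1 and 4 male. Vehicle mouse 4 was female and vehicle mice 1, 2 and 3 were male, so sex was not balanced between the groups. The other groups were AD mice without the Polb allele on vehicle (5 mice) and on urolithin A (5 mice), and wild-type mice on vehicle (4 mice). No wild-type mice on urolithin A were analysed here. Polb had no values here, so the allele itself could not be checked against its transcript.

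Urolithin A is a metabolite that gut bacteria make from the ellagitannins of pomegranates, berries and nuts. It is known for inducing mitophagy, the removal of damaged mitochondria through autophagosomes and lysosomes, and for lowering inflammatory signalling in several models. DNA polymerase beta fills the gap left in base excision repair, the route that mends oxidised and deaminated bases, and neurons depend on it because their DNA is oxidised steadily. The transgenic line develops amyloid plaques and tau pathology, and its human transgenes are driven by a neuronal promoter. The panel reads metabolic, immune and growth-signalling transcripts by counting colour-coded probes, with no amplification. Every level below is a log2 normalized count, and every difference is the mean of the treated mice minus the mean of the vehicle mice on that scale, so that a difference of 1 is a doubling. A level compares mice for 1 gene and not genes with each other, since probes differ in efficiency. The RNA came from bulk tissue, where fewer cells of a type and less RNA per cell cannot be told apart.

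Counting depth was uneven within the treated group. Inferred total counts were 446318, 660047, 246033, 692834 and 186258 in treated mice 1 to 5, against 534637, 536936, 584834 and 459658 in vehicle mice 1 to 4. Treated mice 3 and 5 therefore lay below every other mouse of the study, the other 21 of which ranged from 426742 to 692834. The group means were 446298 ± 231406 (SD, n = 5) and 529016 ± 51705.9 (SD, n = 4), and an exact two-sided permutation test of their difference gave p = 0.484. A normalized value of 20 stood for 7.27 counts in treated mouse 5, for 9.81 counts in treated mouse 3, and for 17.8 to 29.6 counts in the other 7 ADPolB mice.

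The 2 shallow mice read higher than the other treated mice at low levels and not at high ones. Among the 118 tested genes with a level under 5, the median difference of treated mice 3 and 5 from treated mice 1, 2 and 4 was 0.70, and 90.7% of these genes were higher in the shallow mice. The median difference was 0.23 over the 122 genes between 5 and 7, -0.03 over the 179 genes between 7 and 9, -0.06 over the 141 between 9 and 11, and -0.04 over the 59 at 11 or more. Treated mice 1, 2 and 4 stood at a median of -0.03 from vehicle under level 5, where all 5 treated mice together stood at 0.28. Gene differences and list counts are therefore given with all 5 treated mice and, beside them, without mice 3 and 5. Exceptions are the median over males, the confidence intervals and the effects compared across genotypes. Mice 3 and 5 were both female, so leaving them out changes the sex make-up of the treated group as well as its depth. The 2 mice with this lift were the 2 of lowest depth. The parts of depth, sex and the single mice in it cannot be told apart. Fits were also run with the scaling constant of each mouse as a covariate and with counting-error weights. Another kept only genes with 20 or more inferred counts in every ADPolB mouse. No gene passed in any of these fits, and the part of the lift in each single result was not tested.

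**Figure D1:**
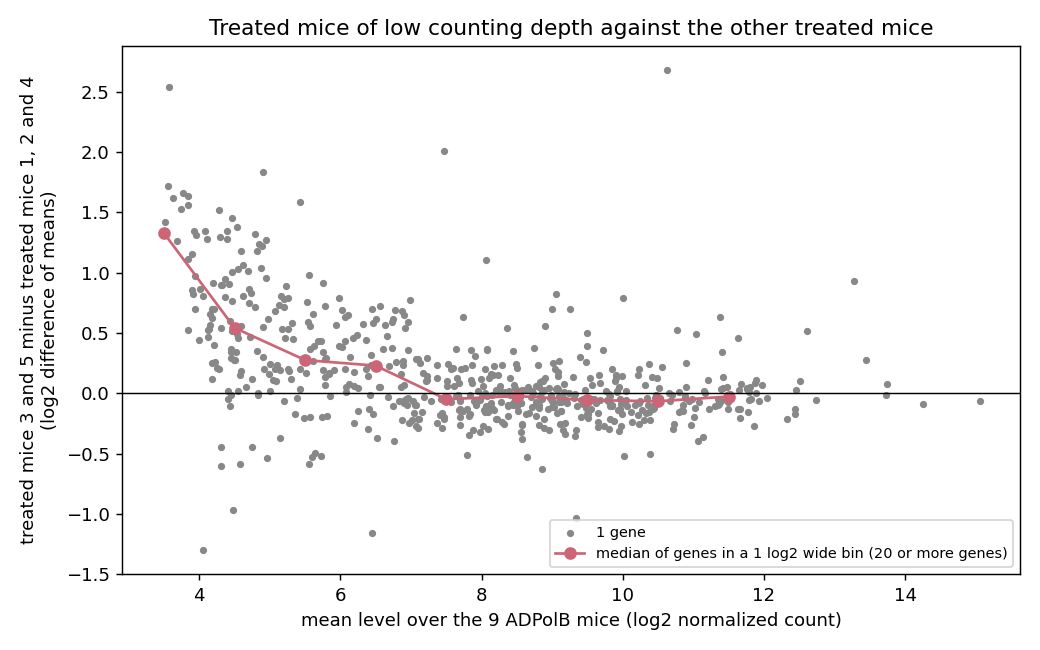
Log2 difference of treated mice 3 and 5 from treated mice 1, 2 and 4 for each tested gene, by its expression level, with binned medians. The 2 shallow mice are higher by a median of 0.70 in tested genes under level 5 and stand at -0.06 between levels 9 and 11.

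No gene passed the test for urolithin A against vehicle (0 of 619, 0%, limma with Benjamini-Hochberg adjustment, smallest adjusted p 0.421). At an unadjusted p under 0.05 there were 40 genes (6.46% of those tested), 15 with higher means in treated mice (2.42%) and 25 with lower means (4.04%). Without treated mice 3 and 5 there were 20 such genes (3.23%), 13 of them among the 40, and all 40 kept their sign. The split depended on scaling. It was 7 higher and 47 lower with each mouse centred on its median, 14 and 37 after quantile normalization, and 13 and 12 with the scaling constant of each mouse as a covariate. The 15 higher genes had a median vehicle level of 5.87 and 10 of them lay under 7, where the shallow mice read high. The 25 lower genes had a median of 9.71, with 1 under 7.

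Most differences were small beside their error. The difference was under 0.5 in size for 92.2% of tested genes, and the median over all of them was 0.02, or 0.00 without the shallow mice. With all treated mice 351 tested genes lay above 0 and 268 below, the background for the list counts that follow. The median half-width of the 95% confidence interval was 0.341, and for 489 genes (79.0%) the whole interval lay within 1 of 0. Means differed by more than 1 for 5 genes, H2-Aa, H2-Eb1, Cd36, Ttr and Folr1, all higher in treated mice. Treated and vehicle values did not overlap for 8 genes (1.29%). If the groups were alike, 1 in 126 genes would on average be separated in each direction, since 126 splits of the mice are possible. Separate groups thus do not set a gene apart by themselves. The 2 with treated mice above (0.323%) were Tecr and H2-Eb1. The 6 with treated mice below (0.969%) included Glul and Smad4, and also Pdpk1, Kmt2d and Mycl, which are named here after their values were seen.

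MHC class II genes encode the surface molecules with which microglia, macrophages and B cells present peptides to CD4+ T cells, and in the aged or amyloid-bearing brain they mark an activated state of microglia. H2-Aa and H2-Eb1 encode chains of the classical molecules, H2-DMa a chain of the chaperone that loads the peptide, and H2-Ob a chain of a modulator of that chaperone. Their promoters carry a shared module, an X box and a Y box at a set spacing, read by the RFX complex and NF-Y together with the coactivator CIITA. The module is shown for the class II genes with the largest mean differences, from the RefSeq promoter table (GRCm38.p6), in the direction of the gene, with CTNGCAAC of the X box and TGATTGG of the Y box in capitals.
H2-Aa: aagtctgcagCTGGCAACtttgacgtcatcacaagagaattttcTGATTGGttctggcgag
H2-Eb1: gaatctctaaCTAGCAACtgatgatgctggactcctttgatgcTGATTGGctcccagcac
H2-Ob: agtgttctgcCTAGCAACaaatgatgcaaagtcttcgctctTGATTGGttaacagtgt
The stretches lie at chr17:34287857-34287917 on the minus strand, chr17:34305763-34305822 on the plus strand and chr17:34238805-34238862 on the plus strand. The motifs are separated by 26, 25 and 23 bases in H2-Aa, H2-Eb1 and H2-Ob, and they do not overlap. Of 32851 mouse promoter windows, each from 250 bases before to 50 after a gene's start, 3.42% hold CTNGCAAC and 7.82% hold TGATTGG on either strand, and 0.304% hold both. Neither of the 2 windows of H2-DMa holds these letters.

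H2-Eb1 was the only class II gene whose groups did not overlap. Its level was 4.50, 4.16, 5.49 and 5.12 in the vehicle mice and 5.81, 8.40, 6.86, 5.52 and 6.63 in the treated mice, in the order of mouse number. Every treated mouse lay above every vehicle mouse, though treated mouse 4 at 5.52 was next to vehicle mouse 3 at 5.49. Treated mouse 2 stood well above the rest. The inferred counts behind these values were 25, 20, 51 and 31 in vehicle mice and 50, 434, 57, 68 and 36 in treated mice. The mean difference was 1.83 (SE 0.573, limma adjusted p = 0.547), or 1.76 without the shallow mice and 1.39 without treated mouse 2. The males alone were apart as well, 4.50, 4.16 and 5.49 against 5.81 and 5.52, with a difference of 0.95. With sex as a covariate the difference was 1.43.

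H2-Aa was 5.53, 5.92, 7.53 and 7.20 in the vehicle mice and 8.09, 10.29, 8.94, 6.69 and 8.19 in the treated mice. The groups overlapped, since treated mouse 4 lay below vehicle mice 3 and 4. The difference was 1.90 (SE 0.741, limma adjusted p = 0.642), 1.81 without the shallow mice and 1.06 in males. Over the 9 mice, each read in a single assay with 1 scaling constant for all genes, H2-Aa and H2-Eb1 ran together (Pearson r 0.961, Spearman rho 0.933), and both had their highest value in the same female, treated mouse 2. H2-Ob was 3.56, 4.16, 4.14 and 4.75 in the vehicle mice and 4.34, 5.75, 5.49, 3.83 and 4.78 in the treated mice, a difference of 0.69 (SE 0.380, limma adjusted p = 0.754), or 0.49 without the shallow mice, with treated mice 1 and 4 inside the vehicle range and treated mice 2 and 3 well above it. H2-DMa differed by 0.12 (95% interval -0.32 to 0.56), and by 0.06 without the shallow mice. All 4 class II genes thus had a mean above vehicle, with a median of 1.26 beside 0.02 over all tested genes, and 1.12 without the shallow mice. In males the median was 0.54. In AD mice H2-Eb1 averaged 5.69 ± 1.06 on urolithin A and 4.82 ± 0.209 on vehicle (SD, n = 5 each), and wild-type mice averaged 5.19 ± 1.17 (SD, n = 4).

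**Figure D2:**
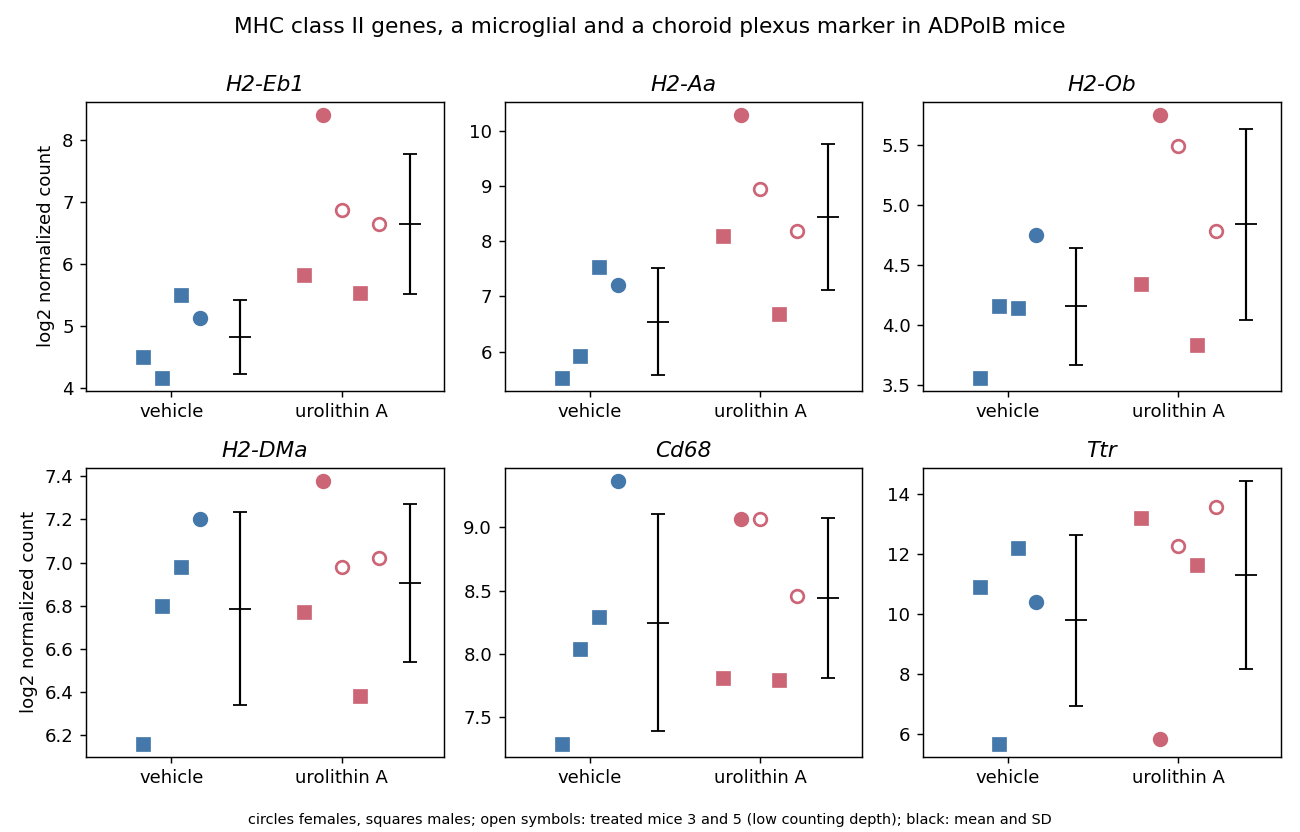
Log2 normalized count of the MHC class II genes in each ADPolB mouse, with group mean and SD. Circles are females and squares males, and open symbols are treated mice 3 and 5. All treated mice lie above all vehicle mice for H2-Eb1, and treated mouse 2 is the highest for H2-Aa at 10.29.

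Class I and the other immune lists had means above vehicle too, with medians that were smaller without the shallow mice. Of 7 tested genes of MHC class I and peptide loading, 6 were above 0, with a median of 0.39, or 0.26 without mice 3 and 5. H2-T23, a non-classical class I gene, differed by 0.63 with all treated mice and 0.38 without those mice, and Psme2, a subunit of the immunoproteasome activator, by 0.21 and 0.19. All 10 tested cytokine, chemokine and receptor genes lay above 0 (median 0.46), against 6 above and 4 below without the shallow mice (median 0.19). Il4i1, a secreted amino acid oxidase, was 3.67, 4.08, 3.28 and 4.08 in the vehicle mice and 4.56, 4.34, 5.11, 3.76 and 4.46 in the treated mice. These are low values, highest in shallow mouse 3, and the groups overlapped. Its difference of 0.67 was 0.44 without the shallow mice, and that of Il2, the T cell growth factor, went from 0.50 to 0.12.

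Innate sensors and NF-kB genes had 9 of 11 means above vehicle (median 0.30, 0.09 without the shallow mice). Tlr1, a receptor for bacterial lipopeptides, differed by 0.69 (0.59 without them) and Traf6, an adaptor ubiquitin ligase below the Toll-like receptors, by -0.19 (-0.13 without them). For interferon and JAK-STAT genes 6 of 8 were above vehicle (median 0.25, then 0.15), with Stat5a, a transcription factor of cytokine receptors, at 0.53 and then 0.32, and Irf4, a lymphocyte and myeloid regulator, at 0.65 and then 0.46. None of the genes in these lists passed the test. Il4i1 alone among them had an unadjusted limma p under 0.05 (0.0446), beside 6.46% of all tested genes.

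Markers of microglia varied as much within the vehicle group as between the groups. All 6 tested markers had a mean above vehicle (median 0.26), but 4 above and 2 below without the shallow mice (median 0.06). Their summed normalized level ran from 1886 to 6633 in vehicle mice and from 3003 to 5180 in treated mice. Cd68, a lysosomal glycoprotein of phagocytes, was 7.29, 8.04, 8.29 and 9.37 in the vehicle mice and 7.81, 9.07, 9.07, 7.79 and 8.46 in the treated mice, with its highest value in vehicle mouse 4. Over the 9 mice H2-Aa and Cd68 had a Pearson r of 0.663 and a Spearman rho of 0.644. The part of microglial number or activation in the class II values was not tested. B cell markers did not pass the filter on low values (0 of 3), and of 19 T and NK cell markers with values 8 did, 7 of them above 0 with all treated mice and 3 without mice 3 and 5.

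Choroid plexus transcripts spread widely within both groups. Ttr, the thyroxine carrier that the choroid plexus secretes, was 10.89, 5.69, 12.19 and 10.41 in the vehicle mice and 13.20, 5.85, 12.27, 11.64 and 13.55 in the treated mice. Vehicle mouse 2 and treated mouse 2 were both low and the other mice high, so the groups overlapped across nearly their whole range. Folr1, the folate receptor of the same epithelium, followed it (Pearson r 0.995, Spearman rho 0.983 over 9 mice). Their differences of 1.51 and 1.16 had standard errors of 1.99 and 1.30, and were 0.44 and 0.36 without the shallow mice. They were 0.14 and 0.30 without vehicle mouse 2, and 2.87 and 2.15 without treated mouse 2. The summed level of the 4 choroid plexus markers ran from 125 to 5188 in vehicle mice and from 179 to 13187 in treated mice. Treated mouse 2, the highest for H2-Aa and H2-Eb1, had the lowest choroid plexus level of its group.

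In glutamate and glutamine metabolism, Glul and Nat8l had lower means in treated mice and Rimklb a higher one. Glul, the glutamine synthetase of astrocytes, which turns synaptic glutamate into glutamine, was 14.05, 13.72, 13.98 and 13.78 in the vehicle mice and 13.62, 13.71, 13.58, 13.48 and 13.60 in the treated mice. Every treated mouse lay below every vehicle mouse, though treated mouse 2 and vehicle mouse 2 were 0.01 apart. The difference was -0.28 (SE 0.0876, limma adjusted p = 0.547), -0.28 without the shallow mice and -0.37 in males. Treated mice stood near the wild-type mean of 13.54 ± 0.108 (SD, n = 4). That comparison was not tested, and Glul was named for its small p between treated and vehicle ADPolB mice. Glul was also the only astrocyte marker with values, so a smaller astrocyte share and less Glul per astrocyte cannot be told apart.

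Nat8l, which makes N-acetylaspartate in neuronal mitochondria, was 11.81, 11.50, 11.52 and 11.39 in the vehicle mice and 11.06, 11.15, 11.11, 11.39 and 11.20 in the treated mice. Treated mouse 4 equalled the lowest vehicle mouse and the other treated mice lay below all vehicle mice. Its difference was -0.37 (SE 0.162, limma adjusted p = 0.670) and -0.36 without the shallow mice. Rimklb, a ligase that joins glutamate to N-acetylaspartate, had the opposite sign at 0.41 (SE 0.194, limma adjusted p = 0.732), and 0.49 without the shallow mice, with vehicle values of 6.37, 7.11, 6.95 and 7.14 and treated values of 7.16, 7.36, 7.42, 7.64 and 6.92. Its groups overlapped, with vehicle mouse 1 the lowest of all. Over the 17 tested genes of the glutamine, glutamate and GABA list 9 were above and 8 below 0 (median 0.08), against 8 above and 9 below without the shallow mice (median -0.01). Of the 4 neuron markers, among them Nat8l, 2 were above and 2 below 0, against 1 above and 3 below without the shallow mice (median -0.08).

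Among lipid genes, Tecr had separate groups. It encodes the reductase that completes each cycle of very-long-chain fatty acid elongation. Its level was 11.79, 11.68, 11.79 and 11.84 in the vehicle mice and 11.94, 11.87, 11.90, 12.14 and 12.07 in the treated mice. All treated mice lay above all vehicle mice by small margins, with treated mouse 2 at 11.87 next to vehicle mouse 4 at 11.84. The difference was 0.21 (SE 0.0590, limma adjusted p = 0.421), the same to 2 decimals without the shallow mice, and 0.29 in males. Of the 9 fatty acid and sterol synthesis genes 7 were above 0, with a median of 0.09 both with and without the shallow mice. Acacb, the mitochondrial acetyl-CoA carboxylase, differed by 0.53, and by 0.34 without the shallow mice.

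Cd36, the fatty acid and oxidised lipoprotein receptor of phagocytes and endothelium, was 3.56, 4.64, 4.58 and 5.56 in the vehicle mice and 5.66, 5.69, 5.83, 5.88 and 4.92 in the treated mice. The vehicle group was wide, with mouse 1 low and mouse 4 within the treated range, and shallow treated mouse 5 was the lowest treated value. The difference was 1.01 (SE 0.399, limma adjusted p = 0.642) and was 1.16 without the shallow mice, 0.67 without vehicle mouse 1 and 1.51 in males. Wild-type mice were at 5.41 ± 0.443 and AD mice on vehicle at 5.19 ± 0.868 (SD, n = 4 and 5). Both lay nearer to the treated ADPolB mean of 5.60 than to the vehicle mean of 4.59. These comparisons were not tested, and Cd36 too was named for its small p in ADPolB mice. Apoc2, the activator of lipoprotein lipase, differed by 0.79 (0.58 without the shallow mice), and Apoe, a carrier of lipids between glia and neurons, by 0.22 (95% interval -0.33 to 0.77), or 0.11 without those mice. In fatty acid oxidation 6 of 7 genes were above 0 (median 0.07), against 4 above and 3 below without the shallow mice (median 0.01). Acaa2, the last thiolase of the mitochondrial cycle, differed by 0.49 and Echs1, its enoyl-CoA hydratase, by -0.14, and without the shallow mice by 0.51 and -0.18.

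Idh1, the cytosolic NADPH-producing isocitrate dehydrogenase, was 8.46, 9.13, 9.03 and 9.49 in the vehicle mice and 9.69, 9.34, 9.61, 9.34 and 9.57 in the treated mice. Vehicle mouse 1 was far below the rest and vehicle mouse 4 fell within the treated values. The difference was 0.48 (SE 0.195, limma adjusted p = 0.642), 0.43 without the shallow mice and 0.29 without vehicle mouse 1. Across the 18 genes of the pyruvate and TCA cycle list, to which Idh1 was assigned, 8 were above and 10 below 0 (median -0.02), against 9 above and 9 below without the shallow mice (median 0.00). Ogdh, a subunit of the oxoglutarate dehydrogenase complex, differed by 0.17, and by 0.13 without the shallow mice.

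The tryptophan and kynurenine list held genes of both signs. Afmid, the formamidase that yields kynurenine, was 4.11, 4.23, 3.28 and 4.56 in the vehicle mice and 4.49, 4.73, 5.03, 5.08 and 5.05 in the treated mice. Treated mouse 1 alone fell under the highest vehicle mouse. The difference was 0.83 (SE 0.279, limma adjusted p = 0.629) and 0.72 without the shallow mice. Tdo2, the dioxygenase of the step before, was 6.68, 6.44, 6.96 and 4.75 in the vehicle mice and 5.17, 5.00, 5.67, 5.37 and 5.55 in the treated mice, where the 3 vehicle males were high and the vehicle female was the lowest mouse of all. Its difference was -0.86 (SE 0.428, limma adjusted p = 0.732), -1.03 without the shallow mice, -1.34 without that female and -1.42 in males. Over the list 8 of 11 tested genes were above 0 with all treated mice (median 0.13), against 4 above and 7 below without the shallow mice (median -0.01).

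Growth-signalling genes tended to have lower means in treated mice. Of 26 tested PI3K-AKT and MAPK genes 18 were below 0 and 8 above, with a median of -0.06, beside 268 of all 619 tested genes below 0. Of the lower ones 5 had an unadjusted p under 0.05, beside 4.04% of all genes. Without the shallow mice 15 were below and 11 above (median -0.04). Braf, the kinase that activates MEK, was 9.87, 9.53, 9.86 and 9.56 in the vehicle mice and 9.44, 9.38, 9.47, 9.54 and 9.34 in the treated mice. Treated mouse 4 passed the lowest vehicle mouse by 0.01, and the other treated mice lay below all vehicle mice. Its difference was -0.27 (SE 0.0879, limma adjusted p = 0.582), and -0.25 without the shallow mice.

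Pik3r2, a regulatory subunit of PI3-kinase, differed by -0.23 (SE 0.0912, limma adjusted p = 0.642) and by -0.23 without the shallow mice. In the mTOR and AMPK list 15 of 23 genes were below 0 (median -0.05), 12 without the shallow mice. Rps6kb1, the S6 kinase, differed by -0.21 and Fnip1, a folliculin partner, by -0.19, which became -0.16 and -0.03 without mice 3 and 5.

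The list of chromatin regulators and corepressors, which also holds Smad2, Smad3 and Smad4, had lower means for 9 of 10 tested genes, with a median of -0.20. At an unadjusted p under 0.05 there were 3 lower and 1 higher, beside 4.04% lower and 2.42% higher over all genes. The lower ones were Ncor1, Smad3 and Smad4. The higher one was Smad2, named here after its values were seen and the only member above 0 with all treated mice. Without the shallow mice 8 were below 0 and the median was -0.13. Ncor1, the scaffold of the HDAC3 corepressor complex, was 9.63, 9.55, 9.70 and 9.47 in the vehicle mice and 9.24, 9.52, 9.26, 9.31 and 9.30 in the treated mice. Treated mouse 2 lay within the vehicle range and the other treated mice below it. Its difference was -0.26 (SE 0.0743, limma adjusted p = 0.421), -0.23 without the shallow mice and -0.35 in males.

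Smad4, the common partner of the TGF-beta and BMP receptor Smads, was 9.01, 8.92, 9.01 and 8.78 in the vehicle mice and 8.71, 8.73, 8.60, 8.74 and 8.47 in the treated mice. The groups did not overlap, the nearest values being 8.78 in vehicle mouse 4 and 8.74 in treated mouse 4. Its difference was -0.28 (SE 0.111, limma adjusted p = 0.642), and -0.20 without the shallow mice. Smad3, which carries the TGF-beta signal, was 9.27, 9.20, 9.09 and 8.94 in the vehicle mice and 8.97, 9.33, 8.50, 8.37 and 8.03 in the treated mice. Treated mouse 2 was the highest of all 9 mice and shallow mouse 5 the lowest. The difference of -0.49 (SE 0.189, limma adjusted p = 0.642) was -0.24 without the shallow mice. Rbbp5, a core subunit of histone H3 lysine methyltransferases, differed by -0.18, Ctcf, the insulator protein, by -0.23, and Cdk9, the kinase that releases paused RNA polymerase, by -0.20. They came to -0.15, -0.18 and -0.10 without mice 3 and 5.

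Nuclear pore and transport genes had 5 of 6 means below 0, and 6 of 6 without the shallow mice, with Ranbp2, a large nucleoporin, at -0.20 and Nup62, of the central channel, at -0.22, or -0.14 and -0.10 without the shallow mice. Acap2, a GTPase-activating protein for Arf6, differed by -0.34 (SE 0.120, limma adjusted p = 0.642), or -0.28 without the shallow mice, with vehicle values of 9.87, 9.40, 9.93 and 9.58 and treated values of 9.36, 9.56, 9.15, 9.34 and 9.35. Vehicle mouse 2 and treated mouse 2 crossed, and otherwise treated mice were lower. Bcl2, the mitochondrial guard against apoptosis, was 5.35, 5.81, 5.77 and 6.54 in the vehicle mice and 6.38, 6.66, 6.49, 6.56 and 6.67 in the treated mice. Vehicle mouse 4 lay within the treated values and the vehicle males below them. The difference was 0.68 (SE 0.244, limma adjusted p = 0.642), 0.67 without the shallow mice and 0.83 in males.

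**Figure D3:**
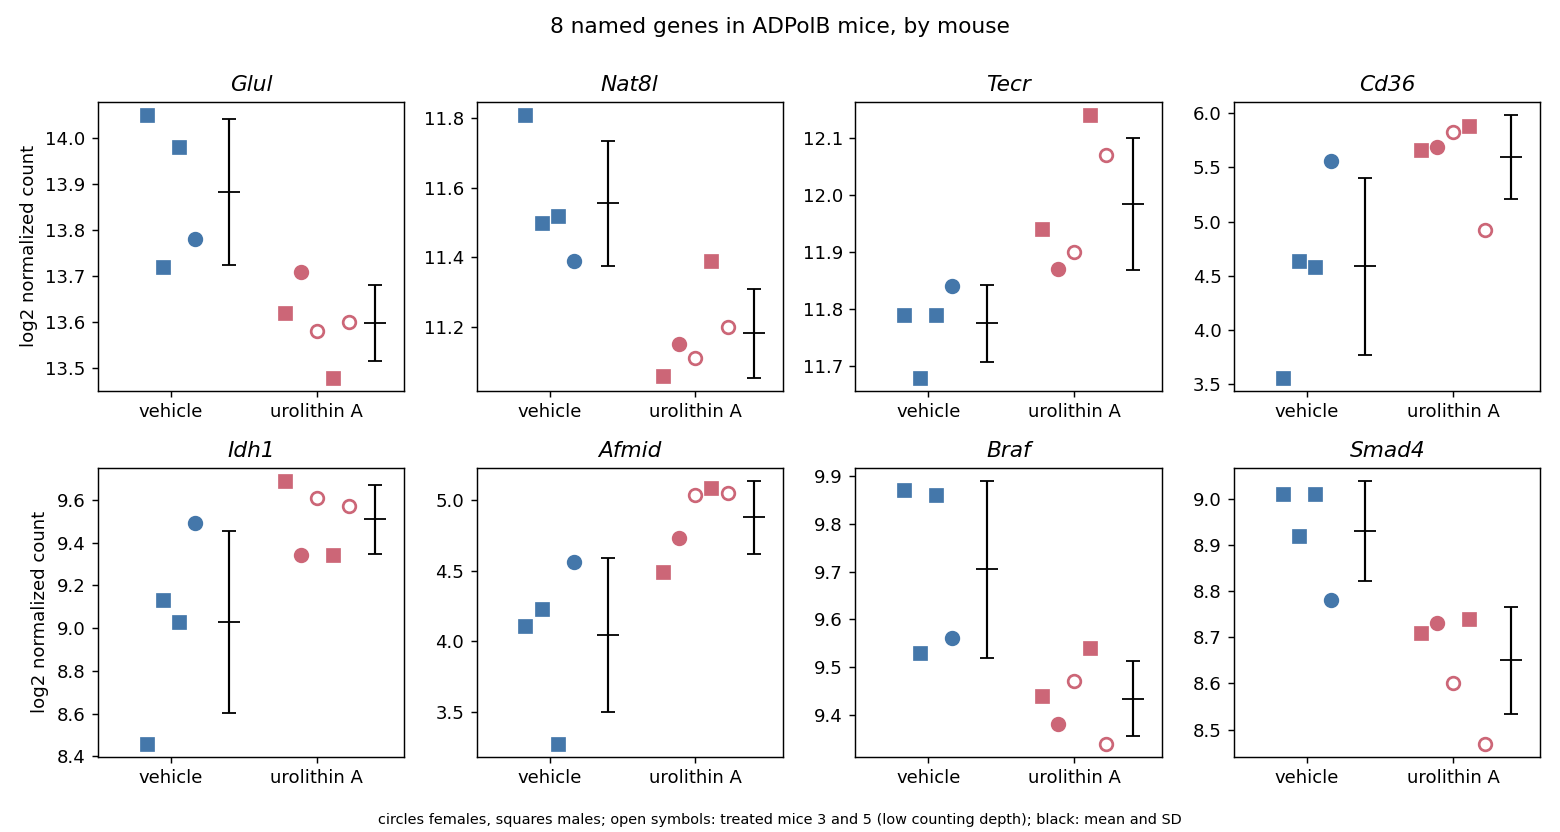
Log2 normalized count of 8 named genes in each ADPolB mouse, with group mean and SD. Circles are females and squares males, and open symbols are treated mice 3 and 5. The treated mice lie below all vehicle mice for Glul and Smad4 and above them for Tecr, while the groups of the other 5 genes overlap or touch, and each panel has its own axis.

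Genes of mitophagy, the process for which urolithin A is known, had means close to vehicle. Of 8 tested mitophagy and autophagy genes 6 were below 0 and 2 above, and the median was -0.04 (-0.08 without the shallow mice). None had an unadjusted p under 0.05, beside 6.46% of all tested genes, so a list this short could hold none at that share. Sqstm1, the adaptor that links ubiquitin to autophagosomes, had a 95% interval of -0.13 to 0.12, among the narrower ones, around a difference close to 0 (0.02 without the shallow mice). Rb1cc1, a scaffold of the ULK1 initiation complex, differed by -0.18 and Map1lc3b, the autophagosome membrane protein LC3B, by -0.11, and without the shallow mice by -0.18 and -0.07. Pink1, Bnip3 and Tfeb were not analysed here.

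Lysosome genes had means above vehicle with all treated mice, and fewer of them did without the shallow mice. With all treated mice 14 of 15 were above 0 with a median of 0.16, and without mice 3 and 5 there were 9 above and 6 below with a median of 0.01. In males, where no treated mouse was shallow, the median was 0.12. The males also leave out vehicle mouse 4, a female, whose summed lysosome level of 30698 was the highest of all ADPolB mice. In AD mice 15 of 15 were above 0 with a median of 0.20. The part of depth in these values was not tested. Ctsz, a cathepsin of microglia, was 8.68, 8.91, 9.66 and 10.36 in the vehicle mice and 9.30, 9.71, 9.78, 9.12 and 9.98 in the treated mice. The treated mice lay inside the vehicle range, and the difference turned from 0.18 to -0.03 without the shallow mice. Cd63, a tetraspanin of late endosomes, differed by 0.42 and then 0.28.

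Energy metabolism outside lipids was centred on 0. Of 33 respiratory chain genes 19 were above and 14 below (median 0.01 beside 0.02 over all genes), against 18 above and 15 below without the shallow mice (median 0.01). Sdhc, a membrane anchor of complex II, was 10.25, 10.05, 10.35 and 10.26 in the vehicle mice and 10.31, 10.30, 10.30, 10.49 and 10.57 in the treated mice, and its groups overlapped. It differed by 0.17 (SE 0.0760, limma adjusted p = 0.732), Ndufb7, of complex I, by 0.14 and Cox8a, of complex IV, by -0.22. Each had an unadjusted p under 0.05, beside 6.46% of all tested genes. Sdhc, Ndufb7 and Cox8a came to 0.14, 0.12 and -0.20 without the shallow mice. Glycolysis had 12 genes above and 13 below 0, against 13 above and 12 below without the shallow mice (median 0.02), with Eno1, the enolase, at 0.16 and then 0.18. The pentose phosphate pathway had 4 above and 5 below, against 5 above and 4 below without the shallow mice (median 0.05). There Rbks, ribokinase, was at -0.44 and Dera, deoxyribose-phosphate aldolase, at 0.39, then -0.24 and 0.31. Ppargc1a, the coactivator of mitochondrial biogenesis, differed by -0.04 (95% interval -0.29 to 0.21), or -0.09 without the shallow mice, and Tfam, which packages mitochondrial DNA, by -0.04 (-0.22 to 0.13), or 0.06 without the shallow mice.

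In the NRF2, glutathione and antioxidant list 10 of 18 genes were above 0 (median 0.04), against 11 above and 7 below without the shallow mice (median 0.03). Nfe2l2, NRF2 itself, differed by 0.07, and its targets Hmox1, haem oxygenase, and Nqo1, a quinone reductase, by 0.24 and 0.40. Without the shallow mice these came to -0.09, 0.01 and 0.12. Sod3, the extracellular superoxide dismutase, went from 0.66 to 0.36. Hif3a, an antagonist of hypoxia signalling, was 6.92, 4.30, 4.82 and 5.08 in the vehicle mice and 4.17, 4.93, 4.35, 4.43 and 3.78 in the treated mice, with vehicle mouse 1 far above the rest. Its difference of -0.95 (SE 0.396, limma adjusted p = 0.642) was -0.40 without that mouse and -0.77 without the shallow mice. Vegfa, the endothelial growth factor, was also highest there, and differed by -0.30 with it, -0.076 without it and -0.20 without the shallow mice. Mapt, the tau gene, differed by 0.15 (95% interval -0.17 to 0.47), by 0.18 without the shallow mice and by -0.04 without vehicle mouse 1. These mice also carry human tau, and whether the Mapt probe counts that transcript too is not given in the sources used here.

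DNA repair genes, of the process that Polb serves, lay on different sides of 0 with and without the shallow mice. With all treated mice 8 of 10 tested genes were above 0 (median 0.03), and without mice 3 and 5 there were 2 above and 8 below (median -0.08). Pole, the catalytic subunit of DNA polymerase epsilon, was 4.67, 4.16, 4.21 and 4.26 in the vehicle mice and 4.17, 4.03, 5.27, 4.24 and 5.78 in the treated mice, with only the shallow mice above the vehicle range. Its difference turned from 0.37 to -0.18 without them. Fancd2, of the crosslink repair pathway, differed by -0.39 and then -0.65. Among 5 tested cell cycle genes the median turned from 0.28 to -0.16, with Ccna1, a cyclin, at 0.32 and Bub1b, of the spindle checkpoint, at 0.32, then 0.24 and -0.16.

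Nucleotide synthesis and salvage had 21 of 31 genes above 0 (median 0.03), against 19 above and 12 below without the shallow mice (median 0.05). Ada, adenosine deaminase, was 4.03, 4.42, 3.52 and 3.17 in the vehicle mice and 3.87, 4.81, 4.35, 4.48 and 4.92 in the treated mice, with vehicle mice 1 and 2 inside the treated values. It differed by 0.70 (SE 0.335, limma adjusted p = 0.732), and Uck2, uridine-cytidine kinase, by -0.29, or 0.60 and -0.19 without the shallow mice. Serine, glycine and one-carbon genes had 4 above and 5 below 0, against 2 above and 7 below without the shallow mice (median -0.11). There Srr, serine racemase, was at -0.21 and Shmt2, the mitochondrial serine hydroxymethyltransferase, at 0.22, then -0.15 and 0.23. Of 6 proteasome genes 4 were below 0, against 3 above and 3 below without the shallow mice (median -0.01). Psma7, of the core ring, was at -0.15 and Psmb3, of the same core, at -0.10, then -0.08 and -0.06. In hypoxia and VEGF 4 of 6 genes were below 0 (median -0.13), against 2 above and 4 below without the shallow mice (median -0.15). Of 6 lipoprotein and lipid receptor genes 5 were above 0 (median 0.32), against 6 above and 0 below without the shallow mice (median 0.15). The short lists were amino acid stress, with 3 of 3 above 0, NAD and cofactors, with 2 of 2 below, mitochondrial biogenesis and dynamics, with 3 of 3 below, and p53, apoptosis and senescence, with 1 above and 2 below. Without the shallow mice amino acid stress and NAD and cofactors had the same counts, and the last 2 lists had 2 above and 1 below each. Endothelial and pericyte markers had 2 above and 4 below (median -0.07), against 2 above and 4 below without the shallow mice (median -0.15). Aspa, the only oligodendrocyte marker with values, was at -0.06 and then -0.34. Markers of blood cells had no values here.

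**Figure D4:**
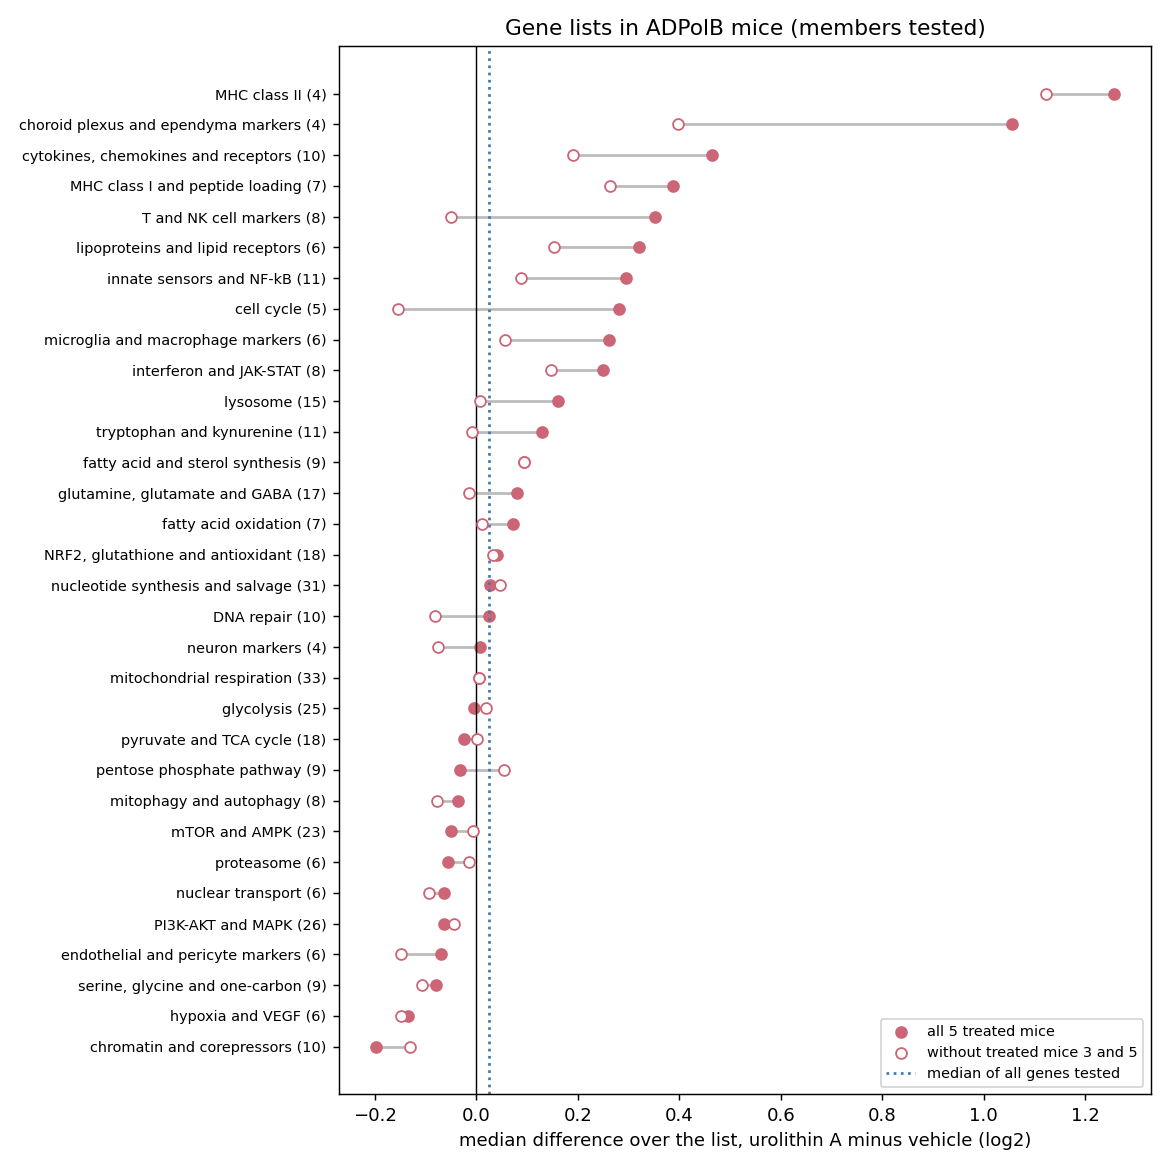
Median log2 difference of treated from vehicle ADPolB mice for each gene list, with all 5 treated mice and without treated mice 3 and 5. MHC class II has the largest medians, 1.26 and 1.12, and the lysosome, cytokine and cell cycle lists lie closer to or below 0 without the shallow mice.

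Ms4a2, Tymp, Nkg7, Ttr and Folr1 were the genes whose difference moved most when the shallow mice were left out, and the first 3 were low ones. Ms4a2, a mast cell receptor subunit, was 3.32, 3.16, 2.99 and 4.34 in the vehicle mice and 2.75, 2.45, 5.11, 2.76 and 5.27 in the treated mice. Shallow mice 3 and 5 were the 2 highest of all 9 mice, and the difference turned from 0.22 to -0.80. Tymp, thymidine phosphorylase, turned from 0.09 to -0.65, and Nkg7, of cytotoxic granules, from 0.61 to -0.08.

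The same drug was given to AD mice without the Polb allele, so the effects could be compared across genotypes. No gene passed the test of the difference between the effects (0 of 619, 0%, smallest limma adjusted p 0.883), and 31 genes (5.01%) had an unadjusted p under 0.05. Slc16a7, a lactate and pyruvate transporter of neurons, was 7.65, 7.67, 8.07 and 7.88 in the vehicle mice and 7.68, 7.65, 7.63, 7.53 and 7.51 in the treated mice. All treated mice lay at 7.68 or below, near vehicle mice 1 and 2 and under vehicle mice 3 and 4. Its effect was -0.22 in ADPolB mice and 0.27 in AD mice, a difference of -0.49 (SE 0.151). Nat8l had effects of -0.37 and 0.22 (difference -0.60, SE 0.222). Tfrc, the transferrin receptor, had effects of -0.23 and 0.29 (difference -0.52, SE 0.189), with vehicle mouse 1 far above its group at 10.72. Without that mouse the ADPolB effect was -0.07.

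Psma7 had effects of -0.15 in ADPolB mice and 0.09 in AD mice. For H2-Eb1 and H2-Aa the effects had the same sign, 1.83 and 0.87 for H2-Eb1 and 1.90 and 1.33 for H2-Aa, as for H2-Ob, while H2-DMa was at 0.12 and -0.07. For H2-Eb1 and H2-Aa the differences of 0.96 and 0.57 had limma adjusted p-values of 0.990 and 0.990. For Glul the effects were -0.28 and -0.05, for Tecr 0.21 and 0.06, for Ncor1 -0.26 and 0.00, and for Afmid 0.83 and -0.10. None of these pairs was shown to differ.

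**Figure D5:**
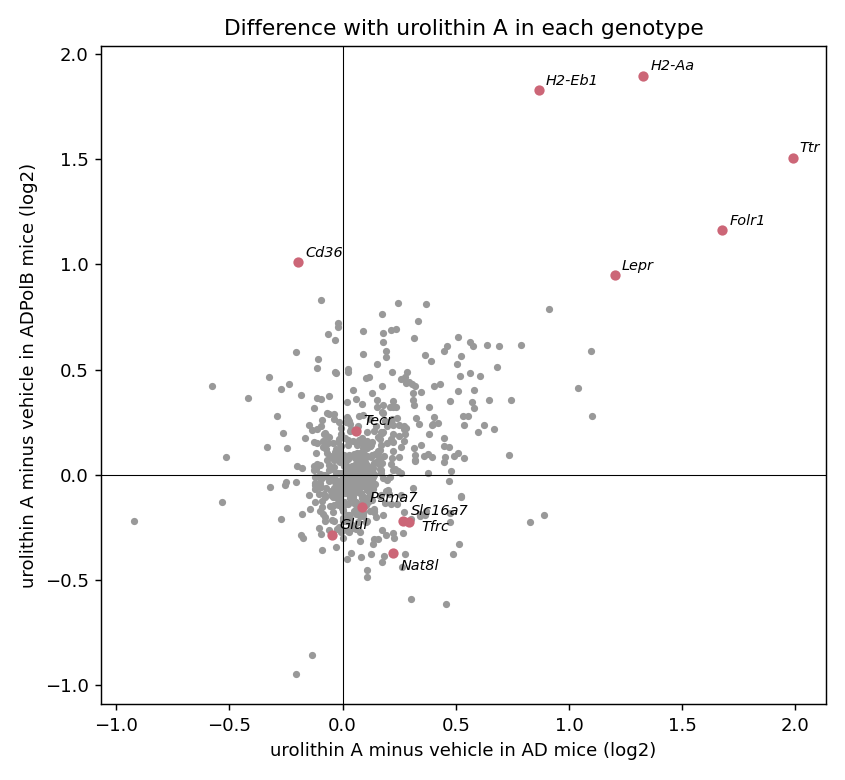
Log2 difference of urolithin A from vehicle in ADPolB mice against the same in AD mice, 1 point per tested gene, with named genes labelled. H2-Aa and H2-Eb1 lie above 0 on both axes, and Slc16a7, Tfrc and Nat8l have opposite signs.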

How the data were processed

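Hippocampal RNA was measured on an nCounter panel. The deposited values are log2 of normalized counts, which the authors made with nCounter Advanced Analysis, per the series' design text. The background correction, normalization genes and software version are not given in the sources used here. Of 768 rows, 20 reference genes had no values. Within a mouse, subtracting 1 constant turned at least 99.6% of the low values into logs of whole numbers (tolerance 0.0125, for counts up to 40), and these gave the inferred counts and totals. Each sample was taken as 1 mouse. Inferred totals cover counting error only.

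Genes with a normalized value of at least 20 in at least 4 of the 23 samples were tested (619, leaving out 129). A model with 1 mean per group over all 23 mice was fitted in R 4.3.3 with lmFit, contrasts.fit and eBayes (with trend) of limma 3.58.1, two-sided, with Benjamini-Hochberg adjustment over the 619 genes and a threshold of 0.05. Scripts were tested on simulated data. Gene lists (31 pathway and 9 cell type) are described by counts and medians only. Named were the 20 genes of smallest p, the 5 of smallest p for the difference between genotypes, 2 per list, 20 fixed genes where they had values, and the 5 that moved most without treated mice 3 and 5. Of the genes this rule selects, 4 are not reported here. The members, lists and rules were chosen with earlier results of these data known. RefSeq matched 747 of the 748 symbols. Alternatives covered scaling, the filter, weights, sex, depth, the moderation and each mouse left out.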

Additional observations from a re-analysis of the deposited data

Results flagged for a closer look

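Among 148 groups of values examined for a mouse standing apart from its group, 7 held one, where chance gives about 5%. Ncor1 was 9.52 in treated mouse 2, above the other treated mice. Cd36 was 4.92 in treated mouse 5, below the other treated mice. Rps6kb1 was 8.55 in treated mouse 3, the lowest of its group, and Ttr at 5.85 and Folr1 at 4.03 were lowest in treated mouse 2. In the vehicle group, mouse 1 stood high for Tfrc at 10.72 and for Vegfa at 9.41.

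Among the named genes, the only ones searched, 3 had mean effects of opposite direction in ADPolB and AD mice. In both genotypes every treated mouse lay on its side of the vehicle mean. The differences between the effects were -0.49 for Slc16a7, -0.24 for Psma7 and -0.70 for Rbks, with limma interaction p-values before adjustment of 0.00411, 0.0126 and 0.0667. After adjustment they were 0.883, 0.883 and 0.975, so none passed. Slc16a7 and Psma7 had been named for a small p of this same difference, so their place here adds no support.

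The 129 genes left out by the filter had a median log2 normalized count of 3.83 in treated mouse 3 and 4.05 in treated mouse 5, above the range of 2.86 to 3.49 in vehicle mice and 3.02 to 3.34 in the other treated mice. Their median inferred counts were 7 and 6 in these 2 mice.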

How the results depend on the processing

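No gene passed the threshold under any setting run, for the comparison within ADPolB mice or for the difference between genotypes. Genes at an unadjusted p under 0.05 numbered 40 as reported and between 20 (without both shallow mice) and 73 (array weights) otherwise. There were 65 without vehicle mouse 4, 62 without treated mouse 2, 24 without treated mouse 5, 25 with the scaling constant as a covariate and 28 with sex as a covariate. For the difference between genotypes 31 such genes became 78 with array weights, 46 without vehicle mouse 4 or treated mouse 2, and 18 without vehicle mouse 1. The difference in inferred total counts ranged from -144352 to -17708.2 with 1 mouse left out, with exact permutation p from 0.257 to 0.914. The median difference over all genes was 0.02 as reported, -0.02 with each mouse centred on its median and 0.00 after quantile normalization, so list medians this close to 0 have no settled sign. Over 1924 combinations of a named gene and a setting, no call was gained, and there was none to lose. This says little about stability, since the smallest limma adjusted p of any setting for ADPolB mice was 0.122. Some named genes changed sign between settings, such as Bub1b (-0.155 to 0.562) and Tymp (-0.65 to 0.415). Same-numbered treated and vehicle mice are separate animals, and their deviations correlated at 0.33, 0.33, 0.04 and -0.39, so the numbers do not pair them. With a replicate block there were 0 genes past the threshold and 44 at an unadjusted p under 0.05 for ADPolB mice, and 0 and 35 for the difference. Centring on reference genes was not run. Depth limits low genes most, since a normalized value of 20 rests on 7.27 counts in treated mouse 5. A test of 5 against 4 mice that passes no gene does not show that the groups are alike.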

Other observations

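Pnoc, the precursor of the neuropeptide nociceptin, lies outside the lists described and was chosen after its values were seen. It was 4.50, 5.05, 4.34 and 5.21 in the vehicle mice and 4.92, 4.89, 5.55, 6.11 and 5.27 in the treated mice, with treated male 4 highest and treated mice 1 and 2 inside the vehicle range. Its mean difference was 0.57 (SE 0.253, limma adjusted p = 0.708), and 0.53 without treated mice 3 and 5. Slc16a8, a lactate transporter of the choroid plexus, was 5.53, 4.48, 5.38 and 5.03 in the vehicle mice and 5.63, 4.17, 6.27, 5.37 and 7.02 in the treated mice, and within the treated group it was highest in mouse 5 and lowest in mouse 2, as Ttr and Folr1 were. It too was chosen after its values were seen. Its difference turned from 0.59 to -0.05 without the shallow mice.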
